A study of Mus musculus with 11 samples.

Results

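The dual-specificity MAPK phosphatases were followed as 9 genes, Dusp1, Dusp2, Dusp4, Dusp5, Dusp6, Dusp8, Dusp10, Dusp14 and Dusp16, out of 18755 genes on the arrays. A gene was represented by the probe sets whose platform annotation gave its symbol and no other, and by the one with the highest mean where there were several. Each of the 9 had 1 such probe set, and none had a probe set shared with another gene. All cells were macrophages grown from bone marrow of C57Bl/6 wild type mice with macrophage colony-stimulating factor. The untreated group (4 arrays) received no stimulus, the LPS group (3 arrays) received 100 ng/ml lipopolysaccharide for 1 hour, and the LPS+PGE group (4 arrays) received the same LPS with 10 µM prostaglandin E for 1 hour. The authors removed 1 further LPS array for quality. The labels give neither the age nor the sex of the mice and leave the kind of prostaglandin E unnamed. Whether replicates came from separate mice or cultures is not stated either, so p-values reflect only the spread between these samples, which may be technical. PGE was given only together with LPS, so its own action without LPS was not measured.

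Mitogen-activated protein kinases (MAPKs) are switched on by phosphorylation of a threonine and a tyrosine in their activation loop. Dual-specificity phosphatases remove both phosphates and so end the signal. In macrophages the receptor for LPS, a bacterial cell wall component, activates the ERK, JNK and p38 branches, and many of these phosphatases are themselves early transcriptional targets of the pathway they switch off. Prostaglandin E is a lipid signal, and several of its receptors act by raising cyclic AMP. Dusp1, Dusp2, Dusp4 and Dusp5 encode inducible nuclear enzymes, Dusp6 a cytoplasmic enzyme selective for ERK, and Dusp8, Dusp10 and Dusp16 enzymes that act mainly on JNK and p38. Dusp14 encodes a small enzyme that has the catalytic domain but lacks the amino-terminal kinase-binding domain of the others.

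Levels are log2 values as deposited: 1 unit more is 2-fold more. Correlations across genes, which are not independent of each other, were 0.996 to 0.998 within groups and 0.98 to 0.993 between them. Within groups the median gene had an SD of 0.102 to 0.121. Array medians lay between 5.79 and 6.01, lower quartiles between 3.8 and 4.05, and the brightest gene of an array between 13.35 and 13.81. All 12 macrophage markers examined lay above the array median in every group. Their summed log2 levels were 137.04 to 138.08 in untreated, 138.55 to 139.1 in LPS and 138.21 to 138.77 in LPS+PGE arrays. Changes of the 12 against untreated ran from -0.13 to 1.64 with LPS and from -0.30 to 2.22 with LPS+PGE, with Cd14 highest in both. Of 53 measured markers of other blood and stromal cells, 5 lay above the array median in untreated, 5 in LPS and 8 in LPS+PGE cells, the brightest in untreated cells being Mmp8 at 10.13. The summed log2 level of the 8 mast cell and basophil markers was higher in LPS+PGE arrays (34.92 to 36.08) than in untreated (32.77 to 33.29) or LPS arrays (32.85 to 34.32), led by Gata2, and 4 of the 8 lay below the lower quartile in LPS+PGE. In LPS+PGE against LPS 9 of the 53 were higher and 3 lower, where 11.9% of all genes were higher and 12.9% lower. Higher were, among others, Ccr7 of dendritic cells (0.66 ± 0.17), Blk of B cells (0.45 ± 0.10) and Col3a1 of fibroblasts (0.44 ± 0.07). Blk was dim, with group means of 3.69 in LPS and 4.13 in LPS+PGE. Lower were, among others, Klrb1c of NK cells (-0.98 ± 0.18) and Cd209a of dendritic cells (-0.31 ± 0.10). Dcn of fibroblasts (-0.64 ± 0.32) did not pass. The part of these markers in the changes with PGE below was not tested. In bulk RNA, a change in the number of cells that express a gene and a change per cell cannot be told apart. The number of arrays limits the precision.

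After an hour of LPS, 7 of the 9 phosphatase genes rose and none fell (limma, Benjamini-Hochberg adjusted p under 0.05), against 6.55% of all genes that rose and 6.69% that fell. At least 2-fold rises were found for 6 of the 9, against 1.57% of all genes. The median change of the 9 was 2.22 on the log2 scale, that of all genes -0.015. Under LPS+PGE, 8 of 9 rose against untreated cells, none fell, and 7 rose at least 2-fold, where 13.8% of all genes rose, 17.9% fell and 1.86% rose at least 2-fold. The median of the 9 was 2.00 against untreated and that of all genes 0.017. Adding PGE to LPS split the family: 5 of 9 were higher than with LPS alone (11.9% of all genes), 2 were lower (12.9%) and 2 did not pass. Rises of at least 2-fold with PGE were found for 2 of them (0.565% of all genes), and the median difference was 0.23 (all genes -0.005). With array medians made equal, the shares of all genes that rose and fell became 30.6% and 9.19% against untreated and 31.2% and 3.83% against LPS, while the same counts of phosphatase genes were found. That scaling moved the median of all genes to 0.143 and 0.154 in these 2 comparisons. The groups did not overlap for 8 of 9 members in LPS against untreated (23.1% of all genes), for 8 in LPS+PGE against untreated (35.1%) and for 7 in LPS+PGE against LPS (33.9%). The 2 comparisons with untreated cells share their control arrays, and both comparisons with LPS share the LPS arrays. Because the 9 genes were chosen with earlier results of these data known, their counts beside all genes are a description. They do not test whether the family responds more than other genes.

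**Figure D1:**
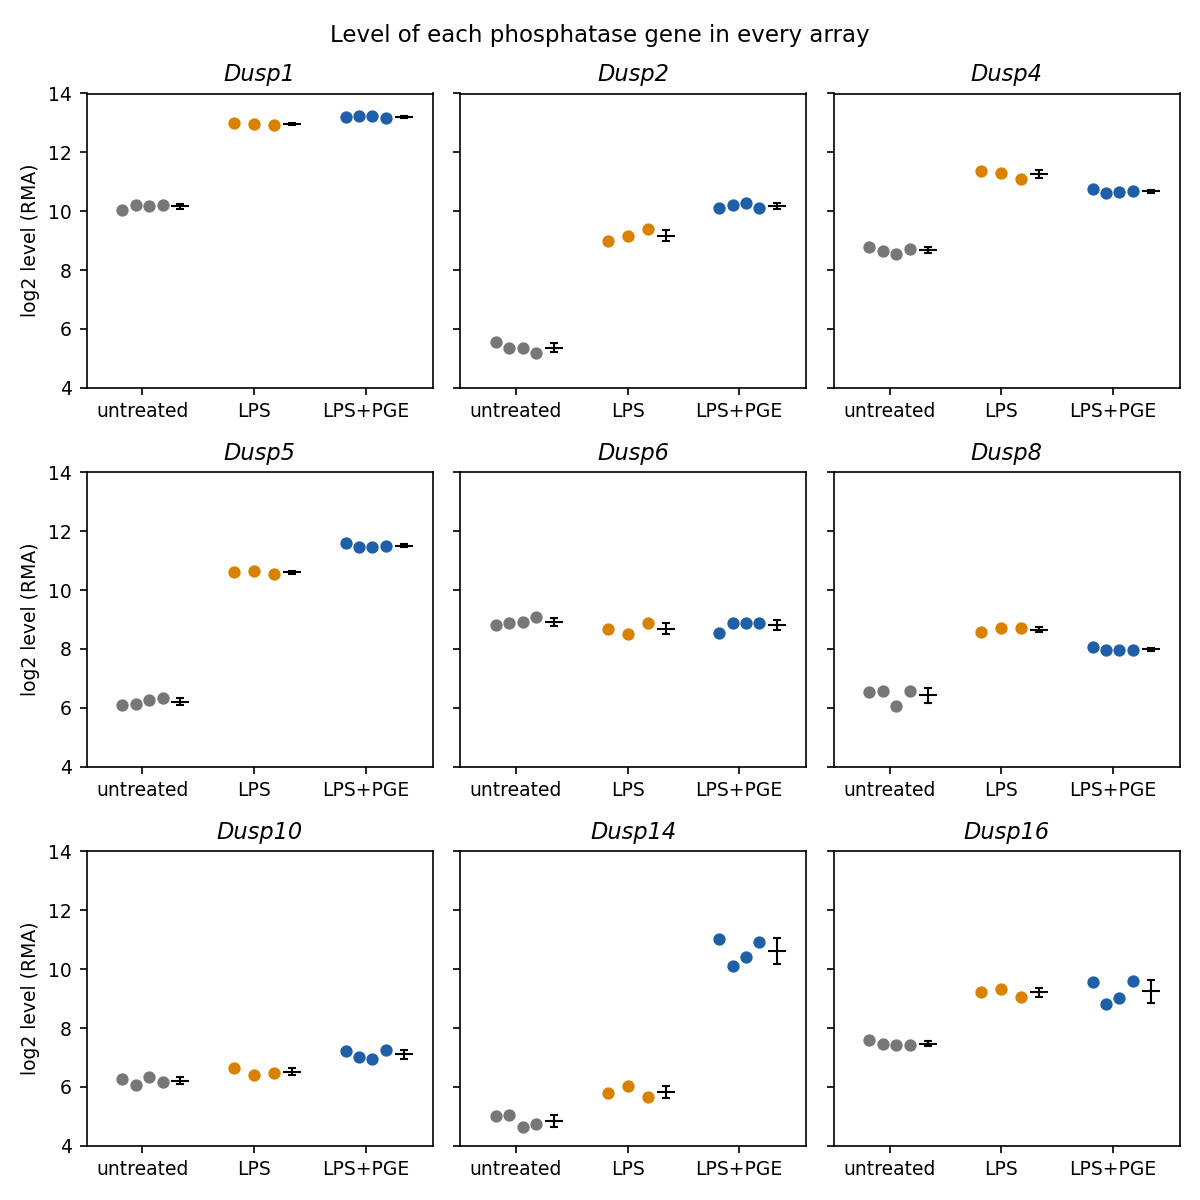
Log2 level of each of the 9 phosphatase genes in every array (points, in replicate order) for untreated (grey), LPS (orange) and LPS+PGE (blue), with the group mean and SD as a bar to the right. Dusp14 sits between 4.62 and 6.04 in the untreated and LPS arrays and between 10.11 and 11.02 with LPS+PGE, whereas Dusp6 lies between 8.51 and 9.09 in all 11 arrays.

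**Figure D2:**
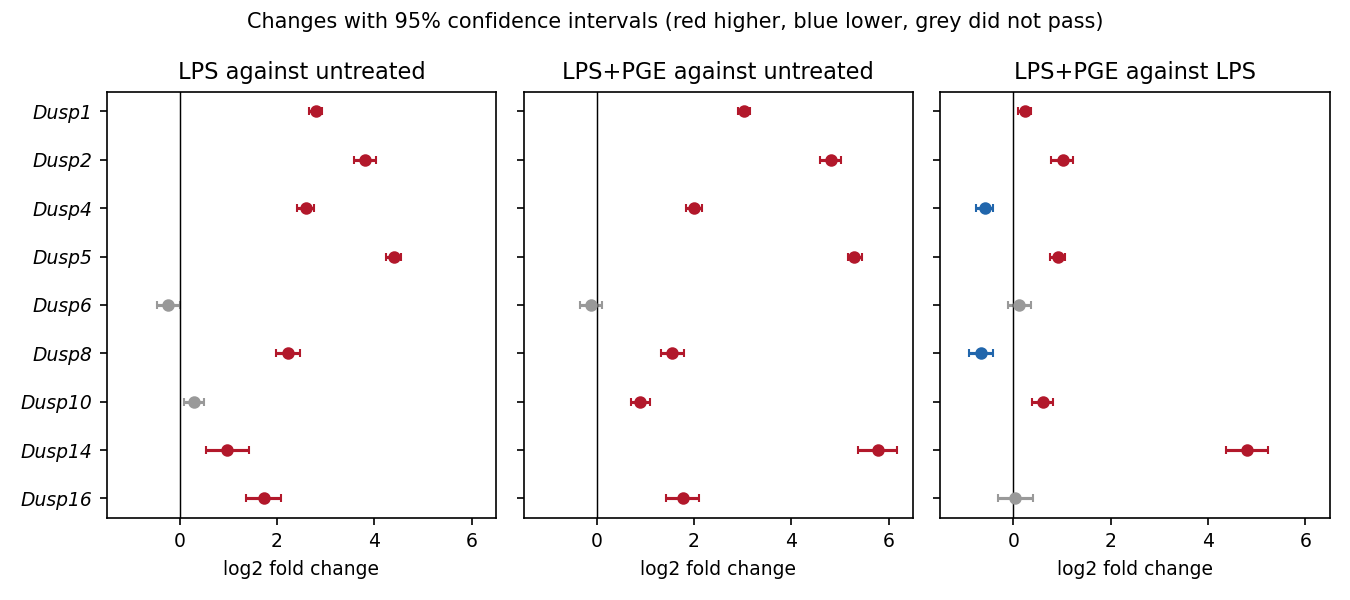
Log2 fold change (point) with its 95% confidence interval (bar) for each gene in the 3 comparisons, from the fit over 11 arrays; red passed as higher, blue passed as lower, grey did not pass. In the right panel, LPS+PGE against LPS, the points run from -0.66 for Dusp8 to 4.80 for Dusp14.

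Dusp14 showed the largest rise with PGE of the 18755 genes tested. Its log2 level was 5.00, 5.03, 4.62 and 4.73 in the 4 untreated arrays, 5.78, 6.04 and 5.64 in the 3 LPS arrays and 11.02, 10.11, 10.41 and 10.93 in the 4 LPS+PGE arrays. Both lower groups lay below the range of the LPS+PGE arrays by at least 4.07 log2 units, and untreated and LPS arrays did not overlap either. LPS alone raised Dusp14 by 0.98 ± 0.20 (SE; 1.97-fold, 95% confidence interval 1.46 to 2.67, limma adjusted p = 0.00624). LPS+PGE raised it by 5.78 ± 0.19 over untreated (54.8-fold, limma adjusted p = 2.96e-10). The difference between LPS+PGE and LPS was 4.80 ± 0.20, or 27.8-fold (95% confidence interval 20.5 to 37.7, limma adjusted p = 2.99e-08), which ranked 1 of 18755 genes. It stayed between 4.66 and 4.97 when any 1 array was left out. The LPS+PGE arrays also differed among themselves: their SD was 0.43, larger than that of 99.77% of genes in these arrays, with replicates 1 and 4 above replicates 2 and 3. The untreated level (4.84 ± 0.20, SD, n = 4) lay above the lower quartiles of the arrays and below their medians.

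The genes whose pattern lay closest to that of Dusp14 were taken by the root mean square difference of centred log2 values over the 11 arrays, a description without a test. They were the orphan nuclear receptor gene Nr4a2 (0.42), the cytokine gene Lif (0.57) and the nuclear receptor gene Nr4a3 (0.68), while the values of Dusp14 themselves spread by 2.62 about their mean. PGE raised Nr4a2 over LPS by 4.44 ± 0.09 and Lif by 3.45 ± 0.22. LPS alone had raised Nr4a2 by 0.46 ± 0.09 and Lif by 1.95 ± 0.22. Nr4a3 rose by 2.63 ± 0.12 with LPS alone, and PGE added 3.97 ± 0.12. Every search for nearest genes in this report left out symbols of predicted genes, clones, mitochondrial genes and small RNAs. It also left out symbols that begin with Rn or consist of a letter and digits.

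**Figure D3:**
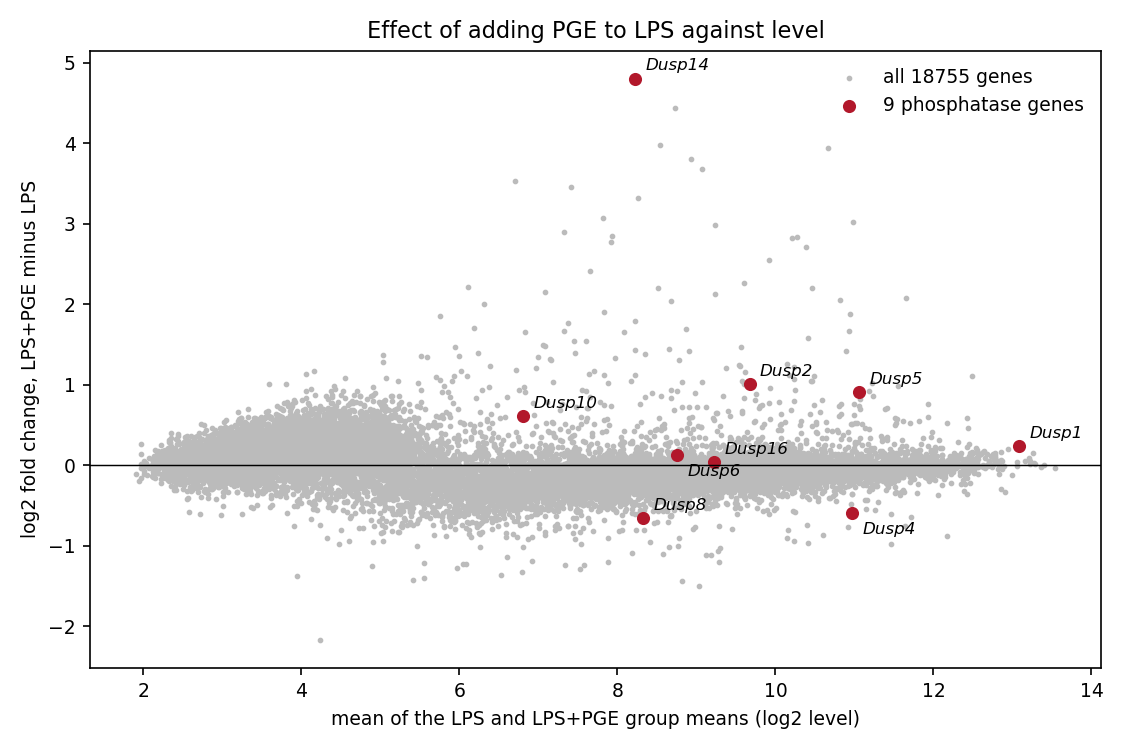
Log2 fold change of LPS+PGE minus LPS (vertical) against the mean of both group means (horizontal, log2 level) for all 18755 genes (grey) and the 9 phosphatase genes (red). Dusp14 is the highest point at 4.80; Dusp2 and Dusp5 lie near 1, Dusp4 and Dusp8 below 0.

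Among the nuclear phosphatases, Dusp1 and Dusp5 are shown with the 250 bases before their annotated start, because their windows hold motifs of factors that early stimuli are known to act through. The sequences are RefSeq's on GRCm38.p6, 5′ to 3′ on the gene's strand, at chr17:26508473-26508722 (minus strand) for Dusp1 and chr19:53528895-53529144 (plus strand) for Dusp5. Capitals mark matches to the cyclic AMP response element TGACGTCA, its shorter core TGACG (also read as CGTCA on the other strand) and the CArG box bound by serum response factor.
Dusp1: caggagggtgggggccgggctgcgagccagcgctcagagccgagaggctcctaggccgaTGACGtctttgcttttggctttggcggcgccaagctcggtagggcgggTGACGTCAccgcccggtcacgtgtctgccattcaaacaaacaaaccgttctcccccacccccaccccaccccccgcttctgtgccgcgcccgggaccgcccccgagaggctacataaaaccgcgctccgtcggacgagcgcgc
Dusp5: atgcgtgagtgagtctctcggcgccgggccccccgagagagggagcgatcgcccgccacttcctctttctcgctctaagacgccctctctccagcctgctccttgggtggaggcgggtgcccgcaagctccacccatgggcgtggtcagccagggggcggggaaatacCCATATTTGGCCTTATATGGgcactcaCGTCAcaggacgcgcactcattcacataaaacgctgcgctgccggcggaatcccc

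The Dusp1 sequence holds 1 full cyclic AMP response element, 143 to 136 bases before the start, and a further core 191 to 187 bases before it. Dusp5 holds a pair of adjoining CArG boxes, 82 to 73 and 72 to 63 bases before its start, and a core 55 to 51 bases before it. Windows were found for 8 of the 9 members, all but Dusp4, and were searched on both strands over 300 bases, from 250 before to 50 after the start. The full element was found in 2 of the 8 (Dusp1 and Dusp8) and in 1.79% of all 32851 windows, and the core, which every full element contains, in 5 of the 8 and in 20.8% of all. A CArG box was found in 1 of the 8 and in 1.63% of all windows. The AP-1 motif TGANTCA and the kappaB consensus were found in none of the 8, and in 7.81% and 8.46% of all windows. None of these motifs was found in the windows of Dusp6, Dusp10 and Dusp14. A match is a description of the letters and not a measured binding site. Member windows were 57.3% to 73.3% G and C, against a median of 52.7% over all windows.

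Dusp1, whose product dephosphorylates mainly p38 and JNK in the nucleus and restrains cytokine production, responded strongly to LPS and little more to PGE. Its log2 level was 10.03, 10.22, 10.19 and 10.22 in the 4 untreated arrays, 13.00, 12.95 and 12.94 in the 3 LPS arrays and 13.19, 13.22, 13.22 and 13.17 in the 4 LPS+PGE arrays. The 3 groups did not overlap, although LPS and LPS+PGE lay only 0.16 apart at their nearest arrays. The rise with LPS was 2.80 ± 0.06 (6.96-fold, limma adjusted p = 1.71e-11) and that with LPS+PGE 3.03 ± 0.06 (8.18-fold, limma adjusted p = 1.89e-12). The step from LPS to LPS+PGE was small, 0.23 ± 0.06 or 1.18-fold (95% confidence interval 1.07 to 1.29, limma adjusted p = 0.0195). It did not pass without LPS replicate 3 (0.22 ± 0.07, limma adjusted p = 0.0579), and with array medians made equal it was 0.39. Stimulated Dusp1 lay within 1 log2 unit of the brightest genes of the arrays. Its pattern was closest to those of the NF-kB inhibitor gene Nfkbid (root mean square difference 0.09), the stress phosphatase subunit gene Ppp1r15a (0.11) and the pseudokinase gene Trib1 (0.11).

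Dusp5 and Dusp2 followed 1 course: a steep rise with LPS and a further, smaller rise with PGE. Dusp5 encodes a nuclear phosphatase selective for ERK. The log2 level of Dusp5 was 6.10, 6.13, 6.26 and 6.34 in the 4 untreated arrays, 10.63, 10.64 and 10.54 in the 3 LPS arrays and 11.60, 11.48, 11.46 and 11.51 in the 4 LPS+PGE arrays. Each group lay above the one before it with no overlap. Dusp5 rose by 4.40 ± 0.07 with LPS (21.1-fold, limma adjusted p = 1.95e-12), the largest rise with LPS among the 9, and by 5.30 ± 0.07 with LPS+PGE (39.5-fold). PGE added 0.91 ± 0.07 (1.88-fold, 95% confidence interval 1.69 to 2.09, limma adjusted p = 7.3e-06). Dusp2 encodes a nuclear phosphatase first known from activated lymphocytes. Measured log2 levels of Dusp2 were 5.55, 5.35, 5.36 and 5.19 in the 4 untreated arrays, 8.98, 9.15 and 9.38 in the 3 LPS arrays and 10.11, 10.21, 10.28 and 10.10 in the 4 LPS+PGE arrays. The groups again stood apart in the same order. Dusp2 rose by 3.81 ± 0.10 with LPS (14-fold, limma adjusted p = 9.95e-11) and by 4.81 ± 0.10 with LPS+PGE (28.1-fold), and PGE added 1.01 ± 0.10 (2.01-fold, 95% confidence interval 1.72 to 2.35, limma adjusted p = 7.68e-05). Among the genes searched each was among the 3 nearest to the other, at a root mean square difference of 0.32. Csrnp1, an immediate-early nuclear protein gene, was near to both (0.28 from Dusp2 and 0.24 from Dusp5), as was the early response gene Phlda1 (0.33 and 0.18).

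Dusp4, the fourth nuclear phosphatase, rose with LPS and rose less when PGE was present. The Dusp4 log2 level was 8.78, 8.65, 8.54 and 8.71 in the 4 untreated arrays, 11.38, 11.31 and 11.10 in the 3 LPS arrays and 10.74, 10.62, 10.64 and 10.68 in the 4 LPS+PGE arrays. All LPS arrays lay above all LPS+PGE arrays, and both above the untreated arrays. The rise was 2.59 ± 0.08 with LPS (6.02-fold, limma adjusted p = 3.2e-10) and 2.00 ± 0.07 with LPS+PGE (3.99-fold, limma adjusted p = 1.21e-09). LPS+PGE was thus below LPS by -0.59 ± 0.08 on the log2 scale, 1.51-fold lower (95% confidence interval 1.34 to 1.71, limma adjusted p = 0.000587). This difference lay between -0.58 and -0.44 under 3 other normalizations and passed in each. The closest genes were the repressor gene Prdm1 (root mean square difference 0.15), the kinase gene Plk2 (0.16) and the transcription factor gene Egr2 (0.17). LPS+PGE minus LPS was -0.46 ± 0.07, -0.64 ± 0.08 and -0.61 ± 0.07 for these genes. They were chosen for likeness to Dusp4 over the same arrays, so these falls are no separate result.

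Dusp6, the cytoplasmic ERK phosphatase, did not pass in any comparison. In single arrays Dusp6 was at log2 levels of 8.80, 8.87, 8.92 and 9.09 in the 4 untreated arrays, 8.68, 8.51 and 8.89 in the 3 LPS arrays and 8.56, 8.90, 8.90 and 8.87 in the 4 LPS+PGE arrays. The 3 groups overlapped. LPS minus untreated was -0.23 ± 0.11 (95% confidence interval -0.47 to 0.01, limma adjusted p = 0.216) and LPS+PGE minus untreated -0.11 ± 0.10 (-0.33 to 0.11, limma adjusted p = 0.427). LPS+PGE minus LPS was 0.12 ± 0.11 (-0.12 to 0.36, limma adjusted p = 0.451). Each interval excluded a 2-fold change in either direction, and the Dusp6 level lay above the array medians in every array.

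Of the phosphatases that act mainly on JNK and p38, Dusp8 shared the course of Dusp4. Dusp8 was measured at log2 levels of 6.54, 6.57, 6.05 and 6.56 in the 4 untreated arrays, 8.57, 8.70 and 8.70 in the 3 LPS arrays and 8.07, 7.96, 7.98 and 7.98 in the 4 LPS+PGE arrays. Here too the LPS arrays were the highest and no groups overlapped, with untreated replicate 3 below the other untreated arrays. Dusp8 rose by 2.22 ± 0.11 with LPS (4.67-fold, limma adjusted p = 4.28e-08) and by 1.56 ± 0.11 with LPS+PGE (2.95-fold, limma adjusted p = 3.32e-07). LPS+PGE was below LPS by -0.66 ± 0.11, 1.58-fold lower (95% confidence interval 1.33 to 1.88, limma adjusted p = 0.00239), and between -0.53 and -0.49 under 3 other normalizations, where it still passed. Dusp4 and Dusp8 had the smallest root mean square difference of any pair among the 9 (0.24), a measure not scaled to a gene's spread. Their values spread by 1.11 and 0.94 about their means, and those of Dusp2 and Dusp5 (0.32 apart) by 2.15 and 2.39. Plk2 was the gene nearest to Dusp8 (0.16) and the second nearest to Dusp4, followed for Dusp8 by Zfp719 (0.18) and Tagap (0.19).

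The window before Dusp8 holds 2 full cyclic AMP response elements, the most of any member, and both are shown here. The elements lie 107 to 100 and 63 to 56 bases before the annotated start, at chr7:142095373-142095402 and chr7:142095329-142095358 of GRCm38.p6 (minus strand), and are printed in capitals with 11 bases on either side.
Dusp8 first element: gcccgctccgcTGACGTCAcctgcccccga
Dusp8 second element: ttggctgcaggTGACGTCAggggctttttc

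Of the 2 members with a full element, Dusp1 changed by 0.23 and Dusp8 by -0.66 with PGE. Dusp14, with the largest change, held none in its window. RefSeq's annotation of Dusp14 and of Dusp8 also extends upstream of the starts used here. Any part of the motifs in these changes was not tested.

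Dusp16, which encodes another phosphatase of JNK and p38, rose to nearly the same mean level under both stimuli. By array, its log2 levels were 7.60, 7.45, 7.42 and 7.42 in the 4 untreated arrays, 9.24, 9.34 and 9.05 in the 3 LPS arrays and 9.55, 8.83, 9.01 and 9.59 in the 4 LPS+PGE arrays. Both stimulated groups lay above the untreated arrays and overlapped with each other. The rise was 1.73 ± 0.17 with LPS (3.32-fold, limma adjusted p = 1.46e-05) and 1.77 ± 0.15 with LPS+PGE (3.41-fold, limma adjusted p = 3.49e-06). The difference between them was 0.04 ± 0.17 (95% confidence interval -0.32 to 0.40, limma adjusted p = 0.887). The spread of Dusp16 among LPS+PGE arrays (SD 0.38) exceeded that of 99.53% of genes, with replicates 1 and 4 above replicates 2 and 3, as for Dusp14. Klf7 (root mean square difference 0.13), Cdc42ep4 (0.16) and Zfp131 (0.16) were nearest to it.

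Dusp10, the remaining phosphatase of this group, passed in both comparisons that involve LPS+PGE and not in LPS against untreated. Dusp10 stood at log2 levels of 6.28, 6.07, 6.34 and 6.15 in the 4 untreated arrays, 6.64, 6.41 and 6.48 in the 3 LPS arrays and 7.22, 7.03, 6.94 and 7.26 in the 4 LPS+PGE arrays. The LPS+PGE arrays lay above all others, while LPS and untreated arrays were 0.07 apart at their nearest. LPS minus untreated was 0.30 ± 0.10 (95% confidence interval 0.09 to 0.51) and did not pass (limma adjusted p = 0.0659), although it passed at 0.041 with genes below the lower tertile of mean level left out and 0.0264 with those below the median left out. With LPS+PGE, Dusp10 rose by 0.90 ± 0.09 (1.87-fold, limma adjusted p = 1.22e-05). PGE added 0.60 ± 0.10 to the LPS level (1.52-fold, 95% confidence interval 1.31 to 1.76, limma adjusted p = 0.00167).

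The order of the conditions thus differed between members. For Dusp1, Dusp2, Dusp5 and Dusp14 it was untreated, LPS, LPS+PGE, with each step passing the test. For Dusp4 and Dusp8 it was untreated, LPS+PGE, LPS, again with each step passing. For Dusp10 untreated and LPS were not separated by the test and LPS+PGE was higher than both. For Dusp16 LPS and LPS+PGE were not separated and both exceeded untreated, and for Dusp6 no step passed.

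The rest of the pathway was examined in 5 lists, 61 measured genes of 69 listed, and changed over a narrower range, from -0.70 to 1.14 over the 3 comparisons. Of 17 other dual-specificity phosphatases, 0 passed in LPS against untreated by limma, where 6.55% of all genes rose and 6.69% fell. In the same test 5 had an unadjusted p under 0.05, and changes ran from -0.28 to 0.25 (median -0.06). The 17 include Dusp7 (-0.14 ± 0.06, limma adjusted p = 0.131) and Dusp9 (0.25 ± 0.08, limma adjusted p = 0.0646). The 9 followed here thus do not stand for every dual-specificity phosphatase, nor for every one that acts on MAPKs. After quantile normalization 3 of the 17 were lower, as were 9.2% of all genes. In LPS+PGE against untreated, Dusp12 (-0.58 ± 0.10) and Dusp22 (-0.38 ± 0.06) were among those that fell. The list had 5 falls and no rise in that comparison, where 17.9% of all genes fell and 13.8% rose. This balance depended on the scaling, with 1 rise and 4 falls after quantile normalization, 2 and 2 after cyclic loess normalization and 4 and 2 with equal array medians. Of all genes, 8.34% rose and 15.1% fell after quantile normalization, 10.8% and 10% after cyclic loess, and 30.6% and 9.19% with equal medians.

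Among 12 MAP kinases, 2 rose and 1 fell with LPS: Mapk6, an atypical MAPK (0.88 ± 0.05), and the JNK gene Mapk8 (0.40 ± 0.06) were higher, and Mapk7, which encodes the large kinase of its own ERK branch, was lower (-0.46 ± 0.08). With LPS+PGE 5 rose and 1 fell, with Mapk6 at 0.86 ± 0.05 and Mapk7 at -0.70 ± 0.08. The 5 rises included dim genes, with LPS+PGE means between 4.12 and 4.78, below the medians of all arrays. After quantile normalization the counts were 3 and 3 with LPS and 2 and 2 with LPS+PGE, where they were 8 and 1 with equal array medians and 2 and 1 after cyclic loess. Of 6 MAP kinase kinases, 2 rose with LPS, Map2k3 (0.51 ± 0.10) and Map2k6 (0.31 ± 0.09), both activators of p38. With LPS+PGE 1 rose, Map2k3 (0.69 ± 0.10). Of all genes, 6.55% rose and 6.69% fell with LPS, and 13.8% rose and 17.9% fell with LPS+PGE. After quantile normalization these shares were 6.09% and 9.2% with LPS and 8.34% and 15.1% with LPS+PGE. Under LPS+PGE they were 30.6% and 9.19% with equal array medians and 10.8% and 10% after cyclic loess.

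Among 18 upstream kinases and adaptors, 5 rose and 1 fell with LPS (2 and 2 with equal array medians). They included Map3k8, the kinase that links LPS to ERK in macrophages (0.86 ± 0.08), and Map3k6 (0.79 ± 0.10), and the fall was that of the adaptor Tab1 (-0.49 ± 0.08). With LPS+PGE 4 rose and 3 fell (8 and 2 with equal array medians, 7 and 2 after cyclic loess), with Map3k6 at 1.14 ± 0.09, the only one of the 61 to pass with at least a 2-fold change in any of the 3 comparisons. The NF-kB-inducing kinase gene Map3k14 rose by 0.64 ± 0.11, and Tab1 fell by 0.70 on the log2 scale. Of 8 kinases activated by MAPKs, 1 rose with LPS, the p38 target Mapkapk2 (0.74 ± 0.06). With LPS+PGE 3 rose and 1 fell, with Mapkapk2 at 0.60 ± 0.06 and Mapkapk3 at 0.44 ± 0.07. Beside these 2 lists, 6.55% of all genes rose and 6.69% fell with LPS, and 13.8% rose and 17.9% fell with LPS+PGE. With equal array medians these shares were 5.19% and 7.92% with LPS and 30.6% and 9.19% with LPS+PGE. After cyclic loess they were 10.8% and 10% with LPS+PGE.

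Between LPS+PGE and LPS, 4 of the 61 were higher and 7 lower, against 11.9% and 12.9% of all genes, and no change that passed reached 2-fold. With equal array medians 12 were higher and 0 lower, after quantile normalization 4 and 1, and after cyclic loess 5 and 0. The shares of all genes were then 31.2% and 3.83%, 4.97% and 5.16%, and 6.05% and 5.53%, in the same order. As deposited, the higher ones were Mapk4 (0.56 ± 0.12), Map3k14 (0.42 ± 0.12), Mapkapk3 (0.41 ± 0.07) and Map3k6 (0.34 ± 0.10). Mapk4 was dim, with group means of 4.09 in LPS and 4.65 in LPS+PGE. The lower ones included the p38 gene Mapk14 (-0.25 ± 0.07), Map2k6 (-0.28 ± 0.09) and Map3k8 (-0.24 ± 0.08). These falls depended on the scaling: no MAP kinase kinase was lower after quantile or cyclic loess normalization, and 2 were higher with equal array medians. The count of 11 became 4 without LPS replicate 3, 3 without LPS+PGE replicate 1 and 7 without LPS+PGE replicate 3 or 4.

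**Figure D4:**
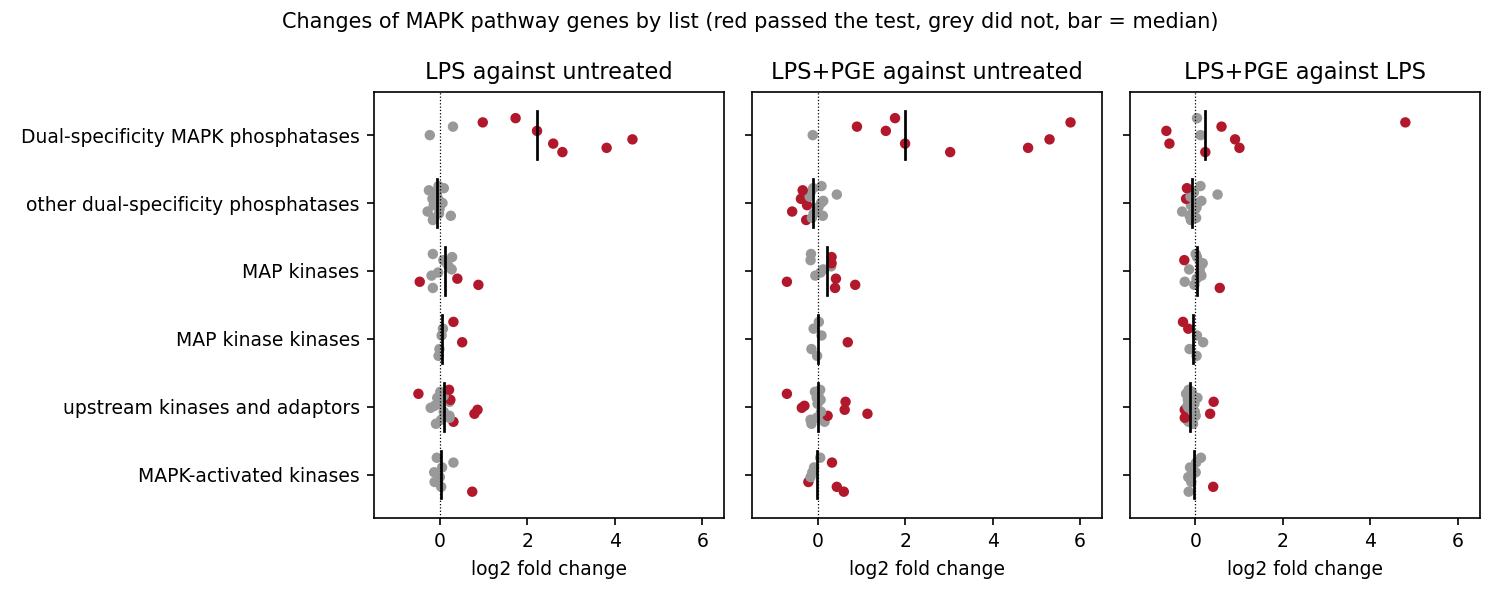
Log2 fold change of every measured gene in the 9 phosphatase genes and 5 lists of other MAPK pathway genes (rows), in the 3 comparisons (panels); red points passed the test, grey did not, and the black bar is the median. In the left panel the 9 phosphatase genes reach 4.40, whereas the other lists stay between -0.49 and 0.88.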

How the data were processed

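Total RNA of 11 samples was measured on Affymetrix mouse gene 1.1 ST arrays. The deposited values were used as given, on a log2 scale that was inferred from RMA (background correction, normalization and probe set summary), which the submitters' processing notes name, and from the range of 1.20 to 13.81. Partek, Affymetrix Power Tools and R 2.13.1 are listed there too, without roles. The build behind the probe sets was not given in the sources used here.

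Of 35309 probe sets, 21143 carried 1 symbol, 1870 several and 12296 none. The highest-mean probe set of each symbol gave 18755 genes. A group-means model over all 11 arrays was fitted with limma 3.58.1 in R 4.3.3 (8 residual and 3.77 prior degrees of freedom). Each of the 3 contrasts was two-sided, and p-values were adjusted by Benjamini-Hochberg over all genes, with 0.05 as the threshold. The pipeline was tested on simulated data. Python 3.11.15 and matplotlib 3.10.9 served for tables and figures.

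The phosphatase genes, pathway lists and alternatives were chosen with earlier results of these data known. All 9 members are named throughout. From each pathway list at most 2 rises and 2 falls that passed are named per comparison. Dusp7 and Dusp9, which did not pass, are named in addition. For members changed at least 2-fold the 3 nearest genes are named too. Promoter windows came from RefSeq, and the protein comparison that had been planned was not run. Listed genes without a row of their own were not analysed here. The alternatives were 3 other normalizations, a trended robust variance, array weights, the 2 compared groups alone, filters on dim genes, all probe sets, means of probe sets, stricter thresholds, leaving out each array, and a block for replicate number.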

Additional observations from a re-analysis of the deposited data

Results flagged for a closer look

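Within the groups of 4 arrays, 18 sets of member values were examined for 1 array far from the rest, and 4 were found. Chance gives about 1 in 20 such sets. Dusp1 in untreated replicate 1 was at 10.03, with the other untreated arrays between 10.19 and 10.22. Dusp16 in the same array was at 7.60, with the others between 7.42 and 7.45. Dusp8 in untreated replicate 3 was at 6.05, with the others between 6.54 and 6.57. Dusp6 in LPS+PGE replicate 1 was at 8.56, with the others between 8.87 and 8.90. Without any 1 array, no call of Dusp6, Dusp8 or Dusp16 changed in any comparison, and that of Dusp1 changed in LPS+PGE against LPS without LPS replicate 3.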

How the results depend on the processing

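All phosphatase calls kept their side of the threshold under 22 refits, except Dusp1 in LPS+PGE against LPS (0.0579 without LPS replicate 3) and Dusp10 in LPS against untreated with dim genes left out. Reversed signs were confined to values that did not pass: Dusp6 in LPS+PGE against untreated (0.015 with equal array medians, 0.031 after cyclic loess) and Dusp16 in LPS+PGE against LPS (-0.035 with array weights, -0.013 with the replicate block, and -0.079 to 0.18 with 1 array left out). At a stricter threshold, 2 members passed in LPS+PGE against LPS with at least a 2-fold change, where 134 of all 18755 genes did. At an adjusted p under 0.01, 6 members passed, and the count of all genes there is given below.

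Genes passing in LPS against untreated numbered 362 with a 2-fold threshold and 1389 under 0.01, and in LPS+PGE against untreated 557, 3324 and, after cyclic loess, 3897. In LPS+PGE against LPS they numbered 134 with a 2-fold threshold, 1749 under 0.01, 2173 after cyclic loess and 1899 after quantile normalization. With 1 array left out they numbered 2945 to 4455. Of the 61 pathway genes, 19 passed in LPS against untreated after quantile normalization, 20 with a trended variance, 19 and 21 with genes below the tertile and below the median left out, and 0 with a 2-fold threshold. In LPS+PGE against untreated 1 passed with a 2-fold threshold and 15 under 0.01. In LPS+PGE against LPS 5 passed after quantile or cyclic loess normalization or with the 2 groups alone, 18 with a trended variance, 6 with array weights or all probe sets, 17 with genes below the median left out, 0 with a 2-fold threshold, 2 under 0.01 and 3 to 11 with 1 array left out. The causes were not tested.

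The labels do not say that replicate numbers pair the arrays, so comparisons were left unpaired. Same-numbered deviations correlated at -0.02 to 0.207, which does not decide whether the arrays are paired. As a hint from the data, not the design, in LPS+PGE against untreated, 8 of 8 arrays correlated best with their own number, 6 of 6 in LPS+PGE against LPS and 4 of 6 in LPS against untreated. With replicate number as a block, 7, 8 and 7 members passed in the 3 comparisons, and 2454, 6124 and 4698 genes.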

Other observations

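In the LPS+PGE arrays, replicates 1 and 4 both lay above replicates 2 and 3 for Dusp10 (7.22 and 7.26 against 7.03 and 6.94), as for Dusp14 and Dusp16, and by less for Dusp4 (10.74 and 10.68 against 10.62 and 10.64) and Dusp5 (11.60 and 11.51 against 11.48 and 11.46). For Dusp1 (13.19 and 13.17 against 13.22 and 13.22) and Dusp2 (10.11 and 10.10 against 10.21 and 10.28) replicates 1 and 4 lay below. They also lay below for Dusp6 (8.56 and 8.87 against 8.90 and 8.90). For Dusp8 (8.07 and 7.98 against 7.96 and 7.98) the rounded values did not separate them.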
